A study of Mus musculus with 10 samples.

Results

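The genes considered here are 47 genes of the DNA replication machinery, taken by their symbols from the gene tables of cultured mouse adipocyte precursors (APs), out of 18384 genes listed. APs of subcutaneous white adipose tissue from C57BL/6J mice had been depleted of CD45+ and CD31+ cells, selected for SCA-1, and grown without (control) or with the cytokine interleukin-4 (IL-4). No other agent was given to either group, and the same selection and growth medium were shared by both. Poly-A mRNA was sequenced after 4 days of IL-4 in 3 control libraries (numbered 1 to 3) and 3 IL-4 libraries (numbered 4 to 6), and small RNA after 2 days in 2 libraries of each group. The study calls the small RNA libraries biological replicates and the mRNA libraries replicates, without saying whether separate animals or separate cultures were meant. The p-values therefore measure the spread between these libraries, and animal age was not given in the sources used here. All 47 genes were listed with reads in each of the 6 mRNA libraries, between 52 and 5539 estimated reads per gene and library, and all 47 were tested.

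Replication starts at origins, which are marked by the origin recognition complex (ORC). CDC6 and CDT1 load the ring-shaped MCM2 to MCM7 helicase onto origin DNA, and geminin (Gmnn) blocks CDT1 so that an origin is not loaded again in the same cycle. In S phase the kinase CDC7 and the factors MCM10, CDC45 and GINS turn the loaded ring into a working helicase, after which primase and the DNA polymerases copy both strands with the sliding clamp PCNA. Many of these genes are transcribed by E2F factors as a cell leaves G1, so their mRNAs are commonly read as marks of cells in cycle.

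The mRNA libraries held 28526782 to 29057787 reads assigned to genes. They did not scatter evenly around their group means. In control 3 and IL-4 6, short transcripts ran high and long transcripts ran low: among genes above 100 normalised counts, the median log2 deviation from the group mean in IL-4 6 was 0.20 in the shortest quintile of transcripts and -0.22 in the longest, and in control 3 it was 0.10 and -0.10. The other 4 libraries deviated the opposite way, by -0.02 to -0.11 in the shortest quintile. This largely follows from measuring each library against the mean of its own group. Control 3 also held 77 reads of Chil3, a gene read 58293 to 75844 times in the IL-4 libraries, against 4 and 9 reads in the other controls. The number of replication genes called is therefore also given without these 2 libraries. Ly6a, which encodes the SCA-1 used for selection, was present in both groups, at 108 to 131 FPKM in the controls and 217 to 291 FPKM with IL-4.

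**Figure D1:**
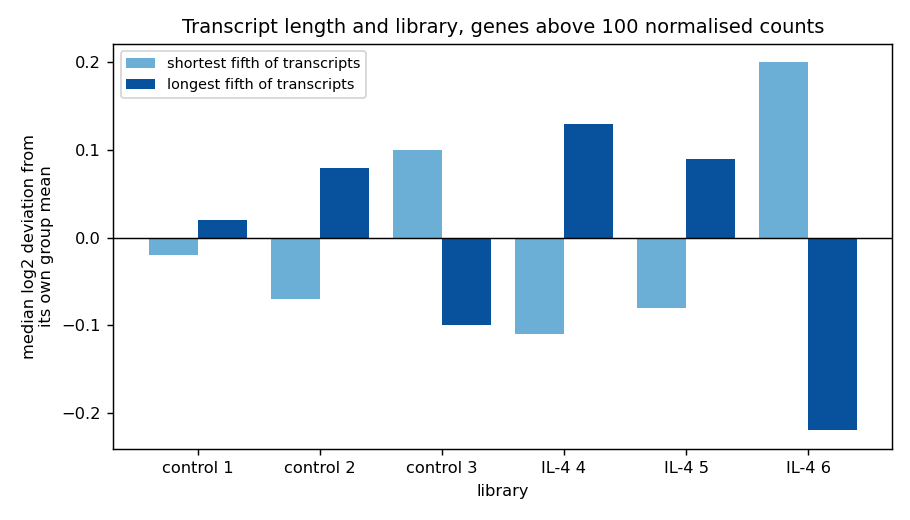
Median log2 deviation of each mRNA library from the mean of its own group, for genes above 100 normalised counts in the shortest quintile of transcripts (light bars) and the longest quintile (dark bars). IL-4 6 stands farthest from its group, at 0.20 and -0.22, and control 3 leans the same way, at 0.10 and -0.10.

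The replication genes shifted in one direction upon IL-4 stimulation. At an adjusted p under 0.05, 28 of the 47 (59.6%) were lower and 0 higher in edgeR's quasi-likelihood test, which was fitted to all 14009 genes that passed the filter on low counts. Of all genes tested, 18.4% were lower and 19.0% were higher, so lower calls were more frequent among the replication genes than across the transcriptome. The median log2 fold change of the 47 genes was -0.41, against 0.00 over all genes tested, and 45 of the 47 had a negative estimate. The decreases were modest, since the called genes stood at 51.9% to 87.2% of the control level and 0 of 47 passed a log2 fold change of -1, which 5.26% of all genes tested did. One gene, Orc5, was higher at an unadjusted p under 0.05, and DESeq2 called 30 genes lower (18.3% of all genes) and 0 higher. In 35 of the 47 genes every IL-4 library lay below every control library, which was the case for 25.3% of all genes tested.

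The size of these differences depended on the scale. The trimmed-mean (TMM) scaling factors were 1.05 to 1.07 for controls and 0.932 to 0.961 for IL-4 libraries, and scaling by library totals instead moved the median log2 fold change of all genes to -0.17. On that scale 38 replication genes were lower, 5 of them beyond a log2 fold change of -1, but so were 35.4% of all genes tested. The count was also 38 on FPKM values (limma, log2 of FPKM + 1), against 35.1% of all genes. Without control 3 and IL-4 6 the test called 33 genes lower (25.1% of all genes tested) and 1, Orc5, higher, at a median of -0.36. With an offset for transcript length in each library it called 37 lower (25.0% of all genes) and Orc5 higher, at a median of -0.37. In bulk RNA, fewer cells in S phase and less of each mRNA per cell cannot be told apart.

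**Figure D2:**
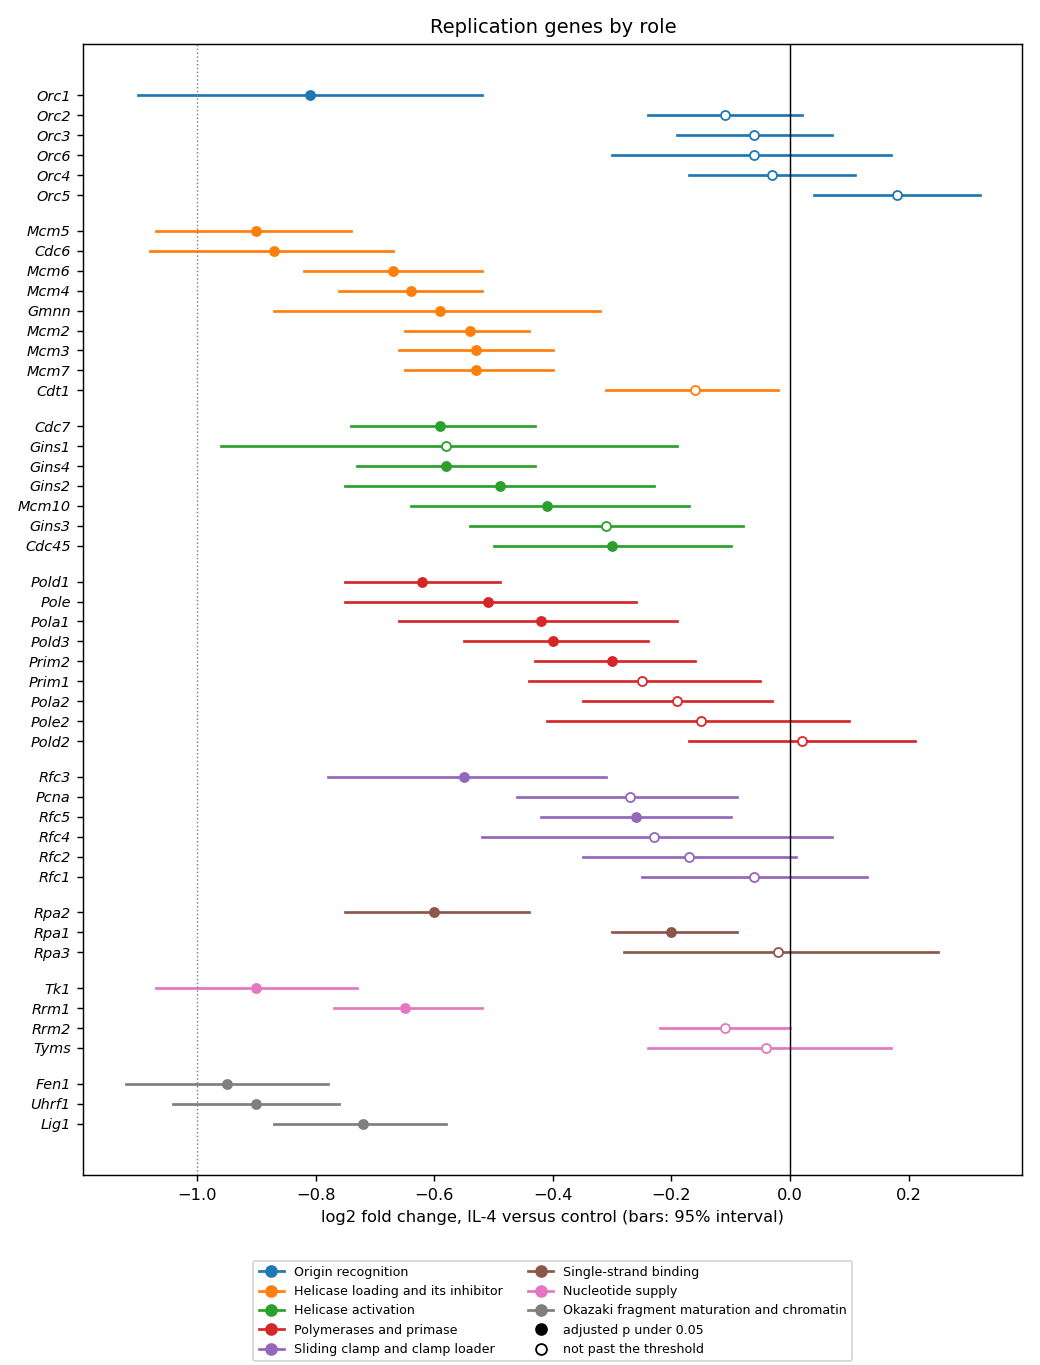
Log2 fold change (IL-4 versus control) of each replication gene, grouped by role and ordered by size within a role. Bars are nominal 95% intervals from a normal approximation, narrower than the edgeR test implies. Filled points passed an adjusted p under 0.05, and the dotted line marks a log2 fold change of -1, which no estimate reached. The lowest estimates, from -0.95 to -0.81, belong to Fen1, Mcm5, Tk1, Uhrf1, Cdc6 and Orc1, while Orc5 and Pold2 are the only genes right of 0.

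Library by library, the median of the 47 genes lay at a log2 of -0.03, -0.03 and 0.07 relative to the control mean in controls 1, 2 and 3, and at -0.44, -0.35 and -0.40 in IL-4 libraries 4, 5 and 6. No IL-4 library overlapped the controls on this measure. IL-4 libraries 4 and 5 each had 45 genes below the control mean, whereas IL-4 6 had 39.

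**Figure D3:**
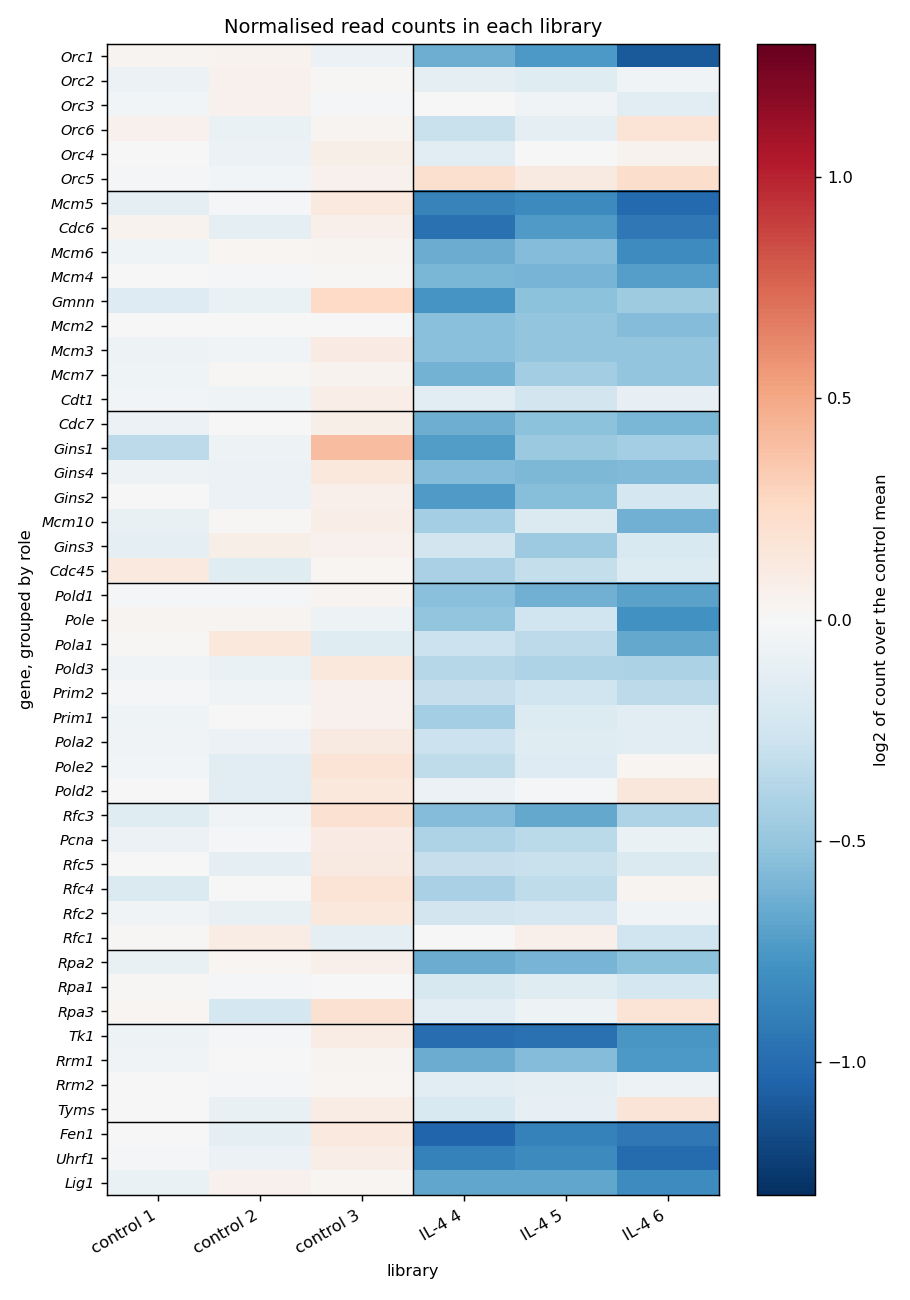
Normalised read count of each replication gene (rows, grouped by role) in each mRNA library (columns), as log2 of the count over the mean of the 3 controls. Blue marks lower and red higher counts. The rows of Mcm2 to Mcm7, Cdc6, Tk1, Fen1, Uhrf1 and Lig1 are blue in each of the IL-4 libraries, and the rows of Orc2 to Orc6 stay pale or turn slightly red.

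Because E2F factors are the best known regulators of this group, the promoters were searched for 4 octamers that E2F proteins bind, TTTGGCGC, TTTCCCGC, TTTGGCGG and TTTCGCGC, on both strands of the 300 bases around the annotated start (250 before and 50 after). RefSeq (GRCm38.p6, the assembly of mm10) had a promoter entry for 39 of the 47 genes. Not matched were Gins1, Gins2, Gins4, Gmnn, Mcm4, Pole, Prim2 and Rfc2. An octamer was present in 19 of the 39 genes (48.7%), compared with 4.83% of the 11077 tested genes that have an entry and 2.7% of all 27025 genes with one. The windows below were chosen to show the motif in genes with a large decrease (Mcm5, Uhrf1, Cdc6, Orc1 and Mcm6) and in genes that carry it without passing the test (Cdt1 and Orc3). Each is 30 bases, written 5′ to 3′ on the strand of the gene, with the octamer or its reverse complement in capitals.
Mcm5: gcgccaagaacTTTCGCGCcaaaacgtcca
Uhrf1: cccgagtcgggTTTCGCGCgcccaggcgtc
Cdc6: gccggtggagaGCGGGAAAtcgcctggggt
Orc1: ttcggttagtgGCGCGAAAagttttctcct
Mcm6: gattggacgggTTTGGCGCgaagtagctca
Cdt1: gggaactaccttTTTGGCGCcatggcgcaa
Orc3: ccatgcctcccTTTCCCGCacgccccgcct

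The Mcm5 window lies at chr8:75109345-75109374 on the plus strand, where TTTCGCGC begins 153 bases upstream of the start and overlaps a TTTGGCGC on the other strand. The Uhrf1 window is at chr17:56304117-56304146 (plus strand, 185 bases upstream), the Cdc6 window at chr11:98908002-98908031 (plus strand, 138 bases upstream) and the Orc1 window at chr4:108579416-108579445 (plus strand, 27 bases upstream). The Mcm6 window is at chr1:128359734-128359763 on the minus strand, 47 bases upstream, and is the nearest of 3 matches in that promoter. In Cdt1 the octamer lies inside the transcribed part, 32 bases downstream of the start, at chr8:122568035-122568064 on the plus strand, and in Orc3 it lies 41 bases upstream, at chr4:34614965-34614994 on the minus strand.

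Of the 19 genes with an octamer, 13 were lower with IL-4, at a median log2 fold change of -0.53. Of the 20 genes with an entry but no octamer, 9 were lower, at a median of -0.25. Across all tested genes with an entry, 24.7% of those with an octamer were lower and 17.8% of those without. Fen1, which had the lowest estimate of the 47 genes, Tk1 and Rrm1 held none of the octamers in this window. Other promoter elements were closer to the share in tested genes: the SP1 box GGGCGG was present in 76.9% of the 39 genes and 67.5% of tested genes, CCAAT in 61.5% and 42.8%, and the cell cycle element CHR (TTTGAA or TTCGAA) in 20.5% and 16.4%. Of the 8 genes with CHR, 6 were lower, at a median of -0.53, against 16 of 31 without it, at -0.26. For SP1, 15 of 30 genes with it were lower (-0.29) and 7 of 9 without (-0.60). For CCAAT the counts were 14 of 24 (-0.36) and 8 of 15 (-0.26). Of all tested genes with an entry, 17.3% to 19.4% of each such group were lower. None of these splits, nor that of the octamers, was tested. Motif hits are matches of letters and not measurements of binding.

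The origin recognition complex split into Orc1 and the rest. Orc1, the subunit whose level rises and falls with the cycle, had the lowest mRNA level of all 47 genes, at 1.42 ± 0.0608 FPKM in controls and 0.72 ± 0.108 FPKM with IL-4 (SD, n = 3). Its normalised read counts were 117, 118 and 108 in controls and 73.8, 68.3 and 53.7 with IL-4, so the groups did not overlap. The log2 fold change was -0.81 ± 0.15 (SE, adjusted p = 0.00332 in edgeR). The other 5 subunits, which are present through most of the cycle, did not pass the test: their estimates ran from -0.11 for Orc2 to 0.18 for Orc5. Orc5 counts were 474, 473 and 504 in controls and 557, 524 and 567 with IL-4, every IL-4 library being higher (SE 0.07, adjusted p = 0.0779 in edgeR). The Orc5 call depended on the processing, with an adjusted p of 0.0457 with length offsets and of 0.0484 without control 3 and IL-4 6, and no call in the remaining settings.

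All 6 subunits of the replicative helicase were lower. Mcm6 and Mcm7 were the most abundant of them, at 37.0 ± 1.34 and 34.7 ± 1.41 FPKM in controls, and fell to 20.6 ± 1.41 and 21.4 ± 1.25 FPKM (SD, n = 3). The log2 fold changes formed a narrow range from -0.53 for Mcm3 and Mcm7 to -0.67 for Mcm6, with Mcm5 apart at -0.90 ± 0.08 (SE, adjusted p = 8.38e-05 in edgeR). Mcm5 counts were 1429.6, 1535 and 1690.5 in controls and 845, 871 and 771 with IL-4. Mcm2 counts were 1883, 1901 and 1887 in controls and 1299.9, 1324 and 1275 with IL-4, for a log2 fold change of -0.54 ± 0.05 (adjusted p = 0.000122 in edgeR). The Mcm5 to Mcm2 ratio of FPKM values was 0.747 to 0.881 in controls and 0.595 to 0.648 with IL-4. This difference between subunits of one ring was seen after the fact and was not tested.

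The loading factors differed from each other. Cdc6, the ATPase that recruits the helicase, had counts of 318, 284 and 322 in controls and 157, 185 and 162 with IL-4, a log2 fold change of -0.87 ± 0.10 (SE, adjusted p = 0.00033 in edgeR). Cdt1, its partner in loading, had counts of 702, 696 and 767 against 653, 612 and 669. The Cdt1 groups did not overlap, but the difference did not pass the test (log2 fold change -0.16 ± 0.07, adjusted p = 0.119 in edgeR), although it did with library totals, on FPKM values and with length offsets (adjusted p from 0.00901 to 0.0149). Gmnn, the inhibitor of CDT1, had counts of 293, 311 and 394 in controls and 194, 228 and 239 with IL-4, a log2 fold change of -0.59 ± 0.14 (adjusted p = 0.0109 in edgeR). The ratio of Cdt1 to Gmnn FPKM was therefore 1.02, 0.952 and 0.828 in controls and 1.43, 1.14 and 1.20 with IL-4.

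Of the 7 genes that activate the loaded helicase, 5 were lower. Cdc7, the kinase that phosphorylates the MCM ring, had counts of 402, 426 and 446 in controls and 273, 293 and 282 with IL-4 (log2 fold change -0.59 ± 0.08 SE, adjusted p = 0.000695 in edgeR). Its activating subunit Dbf4 had counts of 1433, 1422 and 1510.4 against 1221, 1374 and 1466, which overlapped (-0.10 ± 0.08, adjusted p = 0.342). The FPKM ratio of Cdc7 to Dbf4 was 0.230 to 0.245 in controls and 0.156 to 0.184 with IL-4. Cdc45, the helicase cofactor, had counts of 524, 431 and 488 against 357, 388 and 424, at the edge of the threshold (-0.30 ± 0.10, adjusted p = 0.0493).

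The 4 GINS subunits, which join the helicase as a single complex, had estimates from -0.31 to -0.58. Gins4 and Gins2 passed the test. Gins1, with counts of 127, 154 and 212 in controls and 97.4, 115 and 118 with IL-4, and Gins3 did not (adjusted p = 0.0511 and 0.0759 in edgeR), and every IL-4 library was below every control in all 4. Several calls in this group turned on 1 library. Cdc45 was not called without control 1, control 3, IL-4 4 or IL-4 5 (adjusted p from 0.117 to 0.176), nor with upper-quartile scaling (0.0582) or without a filter (0.0544). Mcm10 was lost without control 1, 2, 3 or IL-4 4 (0.0543 to 0.093), and Gins2 without control 1, control 3, IL-4 4 or IL-4 5 (0.059 to 0.0757). Gins1 was called without control 1 or IL-4 6 (0.0246 and 0.0331), and Gins3 without IL-4 6 (0.0488). Gins1 was also called by DESeq2 (0.0254), and in edgeR without a filter (0.0462) and without control 3 and IL-4 6 together (0.0441). With library totals, on FPKM values and with length offsets both genes were called (adjusted p from 0.00535 to 0.0266, edgeR or limma).

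Among the polymerases, with TMM scaling alone, the catalytic subunits were called lower and the small accessory subunits mostly were not. Pold1, the catalytic subunit of polymerase delta, had counts of 876, 867 and 909 in controls and 607, 572 and 546 with IL-4 (log2 fold change -0.62 ± 0.07 SE, adjusted p = 0.000219 in edgeR). Pole, the catalytic subunit of polymerase epsilon, had counts of 1113, 1119.9 and 1038 against 763, 911 and 629.8 (-0.51 ± 0.12, adjusted p = 0.0136). Pola1, the catalytic subunit of polymerase alpha, stood at -0.42 ± 0.12 (adjusted p = 0.0239). IL-4 6 was the lowest library for each of these 3 genes.

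The second subunits of the same enzymes gave smaller estimates. Pold2 counts were 539, 487 and 591 in controls and 510.3, 533 and 594 with IL-4 (0.02 ± 0.10, adjusted p = 0.902), and these groups overlapped throughout. Pole2 (-0.15 ± 0.13) and Pola2 (-0.19 ± 0.08) did not pass the test either, but Pold3, the third subunit of polymerase delta, did (-0.40 ± 0.08, adjusted p = 0.00503 in edgeR). Of the primase pair, Prim2 was lower (-0.30 ± 0.07, adjusted p = 0.0102) and Prim1, the catalytic subunit, stood at -0.25 ± 0.10 (adjusted p = 0.0915). Pola1 was not called without control 1 or control 2 (adjusted p = 0.0772 and 0.0905), nor Pole without control 1 (0.0539), whereas Prim1 was called without IL-4 6 (0.033). Pola2 and Prim1 were both called with library totals, on FPKM values and with length offsets (adjusted p from 0.00845 to 0.0134, edgeR or limma). Transcripts of Pole, Pola1 and Pold1 (7167, 5350 and 3428 bases) were longer than those of Pole2, Pola2 and Pold2 (1695, 2419 and 1634). The contrast between subunits was not tested itself, nor was the part of transcript length in it.

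Pcna was by far the most abundant of the 47 mRNAs, at 113.0 ± 8.19 FPKM in controls and 83.0 ± 11.5 FPKM with IL-4 (SD, n = 3). Its counts were 3457, 3599 and 3927 in controls and 2761, 2871 and 3449.5 with IL-4, IL-4 6 lying just under the lowest control. The log2 fold change of -0.27 ± 0.09 missed the threshold (adjusted p = 0.0539 in edgeR). Without IL-4 6 it was -0.37 with an adjusted p of 0.000716, and with length offsets -0.35 with an adjusted p of 7.99e-05. PCNA also serves DNA repair outside S phase.

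The clamp loader RFC opens PCNA and sets it on DNA. Its small subunits Rfc3 and Rfc5 were lower, and Rfc1, Rfc2 and Rfc4 did not pass the test. Rfc3 counts were 324, 349 and 415 in controls and 244, 227 and 273 with IL-4 (log2 fold change -0.55 ± 0.12 SE, adjusted p = 0.00802 in edgeR). Rfc1, the large subunit, had overlapping counts of 1662, 1757 and 1519.7 against 1639, 1717 and 1377 (-0.06 ± 0.10, adjusted p = 0.658). Rfc5 was not called without control 1, control 3, IL-4 4 or IL-4 5 (adjusted p from 0.101 to 0.125), and without IL-4 6 both Rfc2 and Rfc4 were (0.0389 and 0.0355).

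RPA, a trimer, coats single-stranded DNA at the fork. Of its 3 subunits, Rpa2 and Rpa1 were lower and Rpa3 did not pass the test, and differences between the subunits were not tested. Rpa2 had counts of 446, 485 and 499 in controls and 305, 313 and 328 with IL-4 (log2 fold change -0.60 ± 0.08 SE, adjusted p = 0.00066 in edgeR). Rpa1, the largest subunit, stood at -0.20 ± 0.05 (adjusted p = 0.0203), a call that was present in 1 of 6 fits that left out 1 library (adjusted p from 0.0532 to 0.0838 without control 1, control 2, control 3, IL-4 4 or IL-4 5). Rpa3, the smallest, had counts of 279, 234 and 313 against 246, 262 and 309, which overlapped (-0.02 ± 0.13, adjusted p = 0.935).

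The enzymes of nucleotide supply divided in the same way. Tk1, the S phase thymidine kinase that salvages thymidine, had counts of 923, 951 and 1035 in controls and 489, 493 and 573 with IL-4 (log2 fold change -0.90 ± 0.09 SE, adjusted p = 0.000105 in edgeR). Tyms, which makes thymidylate from scratch, had overlapping counts of 1162, 1091 and 1246 against 1016, 1084 and 1311 (-0.04 ± 0.10, adjusted p = 0.814). The FPKM ratio of Tk1 to Tyms was 2.25, 2.47 and 2.35 in controls and 1.36, 1.29 and 1.24 with IL-4.

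Ribonucleotide reductase makes deoxynucleotides from a large subunit, Rrm1, and a small subunit, Rrm2. Rrm2 counts were 2414, 2369 and 2445 in controls and 2168, 2226 and 2301 with IL-4, separate groups that differed by less than the threshold allowed (-0.11 ± 0.05, adjusted p = 0.152 in edgeR). Rrm1, described here because of its contrast with Rrm2 after the values were seen, had counts of 4908, 5066 and 5196 against 3243, 3432 and 3021 (-0.65 ± 0.06, adjusted p = 0.00013). In FPKM, Rrm1 was the more abundant in every control, with a ratio to Rrm2 of 1.10, 1.16 and 1.15, and the less abundant in every IL-4 library, with ratios of 0.811, 0.836 and 0.712. Rrm2 did pass the test with library totals, on FPKM values, with length offsets and without control 3 and IL-4 6, with log2 fold changes between -0.28 and -0.12.

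All 3 genes of Okazaki fragment maturation and newly made chromatin were lower, and 2 of them had the lowest adjusted p of the set. Fen1, the nuclease that trims Okazaki flaps, had counts of 900.2, 829 and 989 in controls and 443, 492 and 475 with IL-4 (log2 fold change -0.95 ± 0.09 SE, adjusted p = 8.04e-05 in edgeR). Uhrf1, which brings the maintenance methyltransferase DNMT1 to hemimethylated DNA, had counts of 1586, 1517 and 1695 against 868, 900.0 and 800.2 (-0.90 ± 0.07, adjusted p = 3.97e-05). Lig1, the ligase that seals the fragments, had counts of 1217, 1345 and 1313 against 808, 807 and 730.0 (-0.72 ± 0.07, adjusted p = 0.000127). FEN1 works bound to PCNA, and the FPKM ratio of Fen1 to Pcna was 0.129 to 0.145 in controls and 0.0783 to 0.0962 with IL-4.

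**Figure D4:**
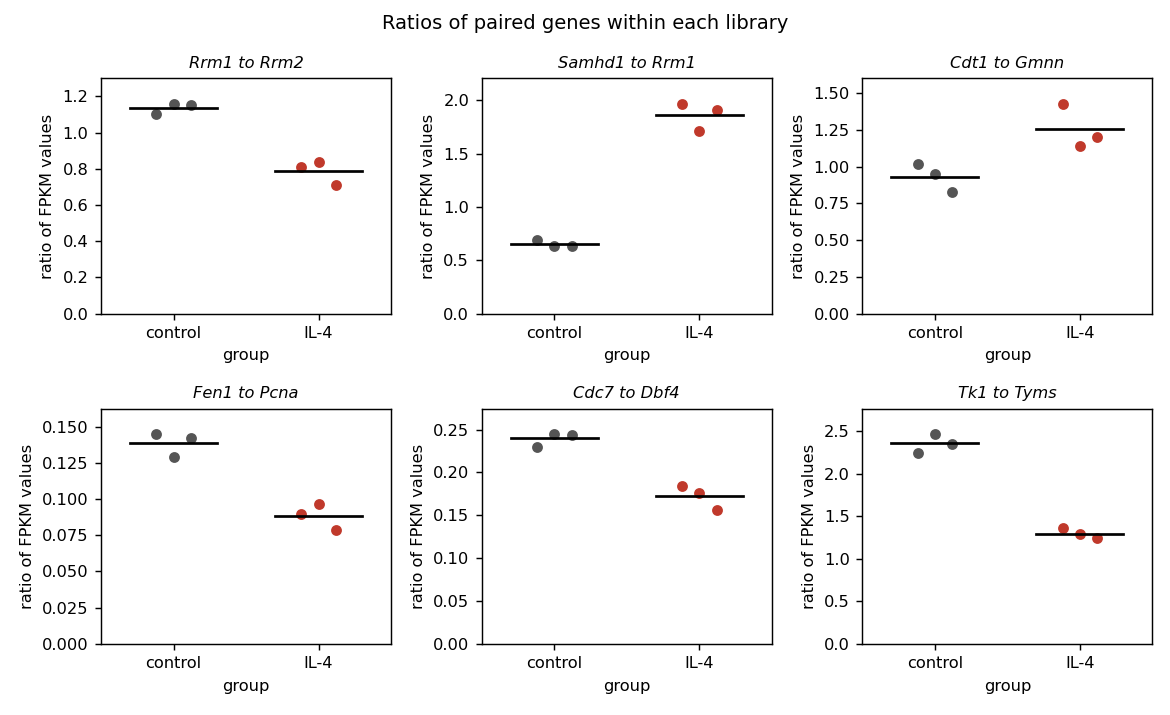
Ratios of the FPKM values of paired genes within each mRNA library (points) with the group mean (bar), each axis starting at 0. Rrm1 to Rrm2, Fen1 to Pcna, Cdc7 to Dbf4 and Tk1 to Tyms are lower in all 3 IL-4 libraries than in any control, and Samhd1 to Rrm1 and Cdt1 to Gmnn are higher.

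These ratios compare genes inside a library and so do not depend on how libraries were scaled. They can still shift with transcript length, in which the paired genes differ. Rrm1 (3997 bases) and Fen1 (2193) are longer than Rrm2 (2199) and Pcna (1260), while Tk1 (1387) is shorter than Tyms (3799). IL-4 6 had the lowest value of each of these ratios, and the part of length in them was not tested. The pairs were chosen after the values had been seen and were given no test. As levels, the 47 genes spanned 1.42 FPKM (Orc1) to 113.0 FPKM (Pcna) in controls, with Rrm1, Rrm2, Mcm6 and Mcm7 next below Pcna and Cdc6 and Gins3 next above Orc1. The SDs of Mcm6 and Mcm7 and of Cdc6 and Gins3 overlapped, so the order within these neighbours was not resolved. With IL-4 Pcna was still the highest and Orc1 the lowest, and Rrm2 stood above Rrm1.

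**Figure D5:**
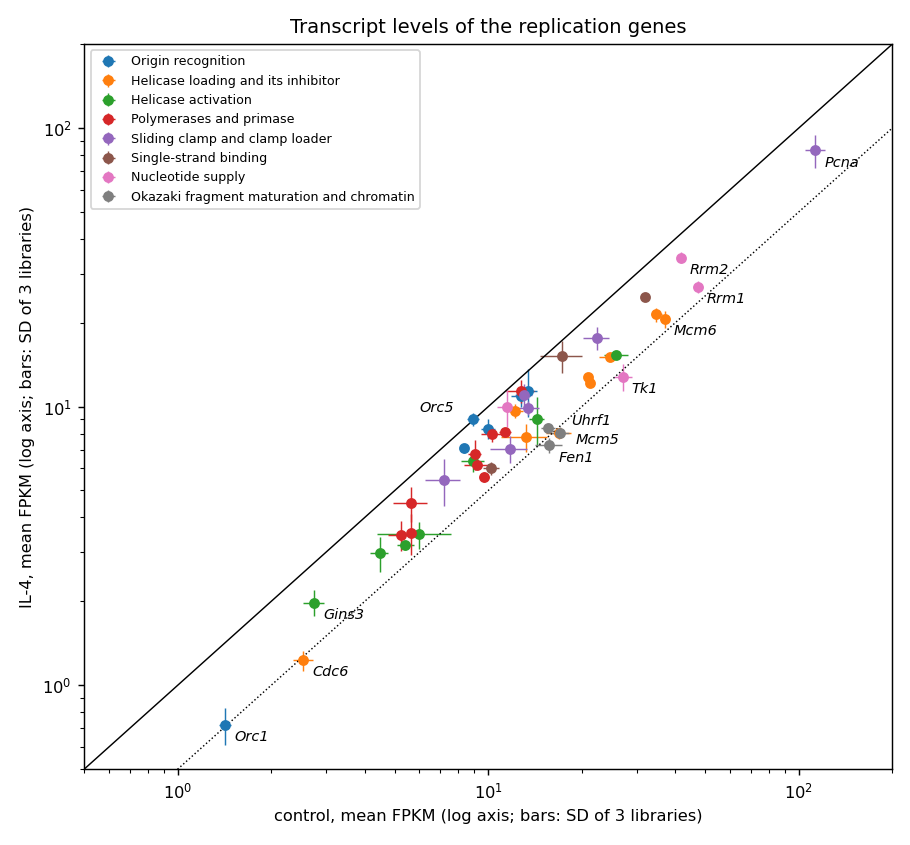
Mean FPKM of each replication gene in control (x axis) and IL-4 (y axis) libraries, both on log axes, with SDs of 3 libraries. The solid line marks equal levels and the dotted line a log2 difference of -1. All genes except Orc5 lie below the solid line, and Fen1, Tk1, Uhrf1, Mcm5 and Cdc6 lie under the dotted line.

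Of 35 further replication factors, 18 (51.4%) were lower and 0 were higher in edgeR's test, against 18.4% of all genes tested that were lower. The other 17 did not pass, and 26 of the 35 had a negative estimate, at a median log2 fold change of -0.34. The largest decreases were those of Dna2, a nuclease for long flaps (186, 246 and 225 normalised counts in controls and 119.8, 106 and 102 with IL-4, 49.9% of control, adjusted p = 0.000672), Clspn, the checkpoint mediator claspin (log2 fold change -0.88 ± 0.11 SE, adjusted p = 0.000456), and Chtf18, a subunit of an alternative clamp loader (-0.83 ± 0.09, adjusted p = 0.000234). Rnaseh2a, named after its values were seen, was higher at an unadjusted p under 0.05 and by DESeq2 (0.33 ± 0.12, adjusted p = 0.0571 in edgeR), and it was called without control 3 or without IL-4 4 as well. Without control 1, 10 of the 35 were called lower, and without control 3 and IL-4 6 together 21 were.

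Nucleotide supply outside the 47 genes was mixed. Of 10 genes, 3 rose and 4 fell, where 19.0% of all genes tested rose and 18.4% fell. Samhd1, which breaks down deoxynucleotides, had counts of 3336, 3141 and 3215 in controls and 6273, 5746 and 5668 with IL-4 (log2 fold change 0.87 ± 0.06 SE, adjusted p = 2.07e-05 in edgeR). Dut, the dUTPase, rose by 0.78 ± 0.12 (adjusted p = 0.00119), and Rrm2b, the reductase subunit used outside S phase, by 0.38 ± 0.08 (adjusted p = 0.00508). Within libraries the FPKM ratio of Samhd1 to Rrm1 was 0.695, 0.634 and 0.632 in controls and 1.97, 1.71 and 1.91 with IL-4. Shmt1 (-0.60 ± 0.11) and Dctd (-0.49 ± 0.11) were among those that fell. Without control 2, control 3 or IL-4 4, 2 of the 10 were called lower, and without IL-4 5, 1 was.

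Of 13 E2F and pocket protein genes, 5 were lower and 0 higher (0 at an unadjusted p under 0.05, 0 by DESeq2). The lower calls were 38.5% of this list, against 18.4% of all genes tested. E2f8 and E2f7, the atypical E2Fs that repress S phase genes and are E2F targets themselves, stood at -0.75 ± 0.08 (SE, adjusted p = 0.000159 in edgeR) and -0.73 ± 0.17 (adjusted p = 0.00935), and the activator E2f2 at -0.62 ± 0.15 (adjusted p = 0.0112). E2f1 counts were 1318, 1282 and 1393 in controls and 1199, 1255 and 1222 with IL-4 (-0.12 ± 0.06, adjusted p = 0.165). E2f6 (-0.38 ± 0.09) and the dimer partner Tfdp1 (-0.39 ± 0.05) were the others called, while Rb1 and Rbl2 had estimates of -0.04 and -0.00.

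Of 20 genes that peak in G2 and mitosis, 10 were lower and 0 higher (0 at an unadjusted p under 0.05, 0 by DESeq2), at a median of -0.25. Mki67, which encodes the proliferation antigen Ki-67, had counts of 9260.4, 10470.3 and 8943 in controls and 6731, 6657 and 4390.1 with IL-4 (-0.69 ± 0.16 SE, adjusted p = 0.00996 in edgeR). Aurkb (-0.69 ± 0.08) and Bub1b (-0.45 ± 0.09) fell too, while Ccnb1 (0.00 ± 0.07), Ccnb2 (-0.01 ± 0.06) and Prc1 (-0.03 ± 0.06) did not pass the test. The count of 10 became 5 without control 1, 6 without control 2, control 3, IL-4 4 or IL-4 5, 12 without control 3 and IL-4 6 together, and 16 with library totals. Of all genes tested, 25.1% were lower without control 3 and IL-4 6 together, and 35.4% with library totals. The study itself reported that IL-4 raised AP proliferation in an MTT assay and raised the number of cells counted. It also found more Ki67-positive cells by antibody staining after 6 days. That staining measures protein in cells on a later day than the mRNA here, and the MTT assay and cell count do not measure mRNA. The difference between these results and the mRNA was not tested.

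Macrophage mRNAs were present beside those of APs. For the marker counts below, 18.4% of all genes tested were lower with IL-4 and 19.0% were higher. The defining macrophage markers Lyz2, C1qa, Csf1r and Adgre1 were abundant in the controls (Lyz2 at 2739 FPKM) in spite of the CD45 depletion, and 13 of 15 macrophage markers were lower with IL-4, at a median log2 fold change of -0.99. The largest falls among those with at least 100 normalised counts were Cx3cr1 (-8.65 ± 0.18 SE), Aif1 (-4.43 ± 0.37) and Fcgr1 (-2.91 ± 0.13), while Mrc1 rose (0.82 ± 0.10) and Cd68 did not pass the test. The summed level of the 15 markers was 4251 to 5553 FPKM in the controls, highest in control 3, and 1713 to 2274 FPKM with IL-4, while the summed level of the 47 replication genes was 775 to 852 and 517 to 575 FPKM. Both sums were therefore lower in every IL-4 library. Of 12 AP markers 8 rose, most of all Pi16 (4.02 ± 0.12), Cd34 (3.35 ± 0.10) and Col3a1 (1.37 ± 0.07), and 2 fell, Pdgfrb (-0.66 ± 0.10) and Lum (-0.61 ± 0.09). Their summed level was 8813 to 9225 FPKM in controls and 12274 to 13356 with IL-4. The summed 8 endothelial markers were 16.5 to 17.5 FPKM in controls and 17.1 to 18.6 FPKM with IL-4, but 2 rose (Vwf, 3.08 ± 0.15, and Tek, 0.81 ± 0.13) and 3 fell (Cdh5, -1.60 ± 0.13, Emcn, -1.49 ± 0.26, and Egfl7, -0.49 ± 0.14). Of 8 lymphocyte markers 5 were listed, with a summed level of 1.02 to 1.25 FPKM in controls and at most 0.480 FPKM with IL-4. Only Cd4 and Cd8a among them passed the filter on low counts, and Cd4 fell (-2.33 ± 0.28, from a mean of 66.1 to 13.0 normalised counts). Which cells carried the replication mRNAs, and the part of the macrophage difference in the result, was not tested.

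Transcript length moved with the comparison as well as with libraries. Among genes above 100 normalised counts the median log2 difference between IL-4 and control ran from 0.09 in the shortest quintile to -0.10 in the longest. The replication genes were somewhat shorter than these genes, with a median transcript length of 2412 against 2959 bases. In order from the shortest class, 5 of 14, 6 of 11, 9 of 9, 5 of 9 and 2 of 3 replication genes were lower, with median log2 fold changes of -0.26, -0.30, -0.59, -0.41 and -0.42. Orc1, with a mean under 100 normalised counts over the 6 libraries, is not in these classes. The share of all genes called lower was not taken by class, and was 18.4% over all genes tested. The part of transcript length in the decreases of the replication genes was not tested. The annotated span of 12 members overlaps that of another listed gene (among them Mcm7 with Ap4m1, Fen1 with Tmem258 and Tk1 with Afmid), and the sources used here give no strand setting, so reads from exons that overlap could not be told apart. The estimated counts of 5 members (Orc3, Orc4, Pola2, Rfc4 and Tyms) were fractional and so contain reads shared with other transcripts.

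One of the helicase genes is also the host of microRNAs. Mir25, Mir93 and Mir106b lie on the minus strand within intron 13 of Mcm7 (transcript NM_001356576.1, intron at chr5:138165162-138165909), Mir25 at chr5:138165321-138165404, Mir93 at chr5:138165523-138165610 and Mir106b at chr5:138165737-138165818. Their mature forms belong to families that were studied as repressors of cell cycle inhibitors. The main arms are shown with the seed, bases 2 to 8, in capitals, because miR-93-5p and miR-106b-5p share theirs and miR-25-3p does not.
miR-25-3p: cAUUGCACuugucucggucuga
miR-93-5p: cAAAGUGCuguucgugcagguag
miR-106b-5p: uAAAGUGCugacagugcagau

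None of the 6 mature forms passed the test at 2 days of IL-4 (edgeR, 640 miRNAs tested, 0 called at an adjusted p under 0.05, or 0% of those tested, 39 at an unadjusted p under 0.05, none of them among the 6, and 12 called by DESeq2). Reads of miR-25-3p, the leading form, numbered 139271 and 257160 without IL-4 and 162542 and 269011 after it (log2 fold change -0.09 ± 0.24 SE, adjusted p = 0.989). miR-93-5p had 42267 and 55589 reads against 53573 and 61477 (0.02 ± 0.19, adjusted p = 0.989). Both overlapped between groups. miR-106b-5p had 12542 and 7369 reads against 25933 and 12009 (0.71 ± 0.55, adjusted p = 0.976), and its groups overlapped too. The estimates of the minor arms were -0.27 (miR-25-5p), -0.25 (miR-93-3p) and -0.05 (miR-106b-3p). Mcm7 mRNA, measured 2 days later, was at 69.5% of control. Mir7053, in intron 15 of Pold1, had 0 reads in all 4 libraries.

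The miRNAs that the study followed, encoded together in the H19X locus, were compared with the 3′ UTRs of the 47 genes. A site was counted where the UTR held the reverse complement of the seed. The 47 genes had short 3′ UTRs, with a median of 568 bases against 1205 in tested genes, and held fewer of these sites: miR-322-5p matched 14.9% of them and 24.8% of 13002 tested genes, miR-503-5p 2.13% and 5.02%, miR-351-5p 10.6% and 15.8%, miR-542-3p 8.51% and 16.7%, miR-450b-5p 10.6% and 13.4%, and miR-450a-5p 0 of 47 and 1.25%. The UTR of a gene was the longest 3′ UTR among its protein-coding transcripts in GENCODE. The mature miR-322-5p and miR-450b-5p are given with the seed in capitals. Each is followed by 28-base stretches of these 3′ UTRs with the match in capitals, for the genes with the largest decreases that hold one.
miR-322-5p: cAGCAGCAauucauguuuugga
Cdc6: gagaggcctttcctTGCTGCTttttctc
Cdc7: tctccacttactgtTGCTGCTgtgtgtt
miR-450b-5p: uUUUGCAGuauguuccugaaua
Fen1: cgctgatggaagaaCTGCAAAgagacga
Mcm5: ctcagtttcctaatCTGCAAAcaaattt
Rrm1: actaaagagccttcCTGCAAAttagtga

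These stretches are at chr11:98923625-98923652 (Cdc6, plus strand), chr5:106983362-106983389 (Cdc7, plus), chr19:10199492-10199519 (Fen1, minus), chr8:75127783-75127810 (Mcm5, plus) and chr7:102468718-102468745 (Rrm1, plus). The 7 genes with a miR-322-5p match (Cdc6, Cdc7, Gins2, Orc2, Pold3, Rfc1 and Rpa1) had a median log2 fold change of -0.40, against -0.42 for the 40 without. The 5 genes with a miR-450b-5p match (Fen1, Gins3, Mcm4, Mcm5 and Rrm1) had a median of -0.65, against -0.35 without. For miR-351-5p the medians were -0.26 and -0.46, and for miR-542-3p -0.22 and -0.49. These groups are small, the miRNAs and mRNAs came from different days, and no test was made of them.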

How the data were processed

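Gene tables of 6 mRNA libraries and miRNA tables of 4 small RNA libraries were used. The authors filtered BGISEQ reads with SOAPnuke, mapped them to mm10 with HISAT, and estimated gene levels with Bowtie2 and RSEM; the deposited expected counts are not normalized, and the deposited FPKM values are scaled by transcript length and library size. miRNA read counts were deposited by the authors from the miRDeep2 quantifier, and the largest count over precursors was used for each mature form. Totals were 28526782 to 29057787 reads (mRNA) and 23790821 to 32061504 (small RNA). One row without a gene symbol (0.00016% of counts) was left out, and 27 symbols were taken from Entrez numbers.

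Expected counts were rounded and tested with edgeR 4.0.16 (filterByExpr with a minimum count of 10 and total of 15, TMM, quasi-likelihood), with Benjamini-Hochberg adjustment over all genes and a threshold of 0.05, and normalised read counts are TMM-scaled counts. Intervals are nominal 95% intervals from a normal approximation to the SE, and reflect the spread between libraries. They are narrower than the quasi-likelihood test implies, so an interval can exclude 0 where the test does not pass. For Cdt1 the interval was -0.31 to -0.02 at an unadjusted p of 0.0558 in edgeR. DESeq2 1.42.0 and limma 3.58.1 on log2(FPKM + 1) or log2(FPKM + 0.1) were alternatives, with other scalings, no filter and each library left out; length offsets and leaving out 2 libraries were added after seeing the data. Scripts were tested on simulated data. No 2 replicate mRNA libraries agreed within counting noise (chi-square per degree of freedom 2.69 to 54.9). The members and lists were chosen with earlier results of these data known. Values per library are given for the genes with the largest and the smallest fold change in each of 8 roles and for Mcm2, Cdc6, Cdt1, Gmnn, Cdc45, Pcna, Pole, Rpa2, Rrm2, Tk1, Fen1, Uhrf1 and Orc1; of the other lists, up to 3 called rises and 3 called falls with a mean of at least 100 normalised counts are named, with Dbf4, E2f1, E2f8 and Mki67, most by their fold change only. Other genes were named after their values were seen. One gene that this rule names is not reported here.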

Additional observations from a re-analysis of the deposited data

How the results depend on the processing

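Of the 28 replication genes called lower, 21 were past the threshold in all 14 alternatives, the other 7 (Cdc45, Gins2, Mcm10, Pola1, Pole, Rfc5 and Rpa1) were not in at least 1, and all 28 kept their direction. The number called lower was 22 (without control 1) to 34 (without IL-4 6), and 27 to 38 under the other alternatives. The count over all genes moved as well. It was 1911 of 14165 genes tested without control 1, 3014 of 14140 without IL-4 6, and 2767 of 14009 with upper-quartile scaling. One gene was called higher with length offsets and without control 3 and IL-4 6. The median of the 47 genes was -0.58 with library totals, -0.49 with limma on log2(FPKM + 1) and -0.58 with log2(FPKM + 0.1). Over all genes, the same settings called 4963, 4916 and 4904 genes lower and 1704, 1697 and 1694 higher, since they shift the median of all genes by -0.17, -0.13 and -0.17. They called 8 E2F and pocket protein genes lower each, and 16, 17 and 17 G2/M genes. Leaving out 1 library gave 5 to 11 G2/M genes, 10 to 19 other replication factors and 1 to 6 other nucleotide supply genes lower. Other replication factors called higher numbered 1 with DESeq2, 0 to 1 without 1 library, 2 with length offsets and 2 without control 3 and IL-4 6.

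Estimates that changed sign lay near 0 and passed no threshold. With length offsets these were Orc3 (0.05), Orc4 (0.01), Pold2 (-0.03), Rfc1 (0.02) and Tyms (0.01); Pold2 was also -0.00 with upper-quartile scaling, -0.15 with library totals, -0.14 with log2(FPKM + 1) and -0.15 with log2(FPKM + 0.1). Without 1 library, Orc4 reached 0.03, Orc6 0.05, Rfc1 0.03, Rpa3 0.09 and Tyms 0.05, and Pold2 -0.05, from lows of -0.07, -0.20, -0.12, -0.12 and -0.15, and a high of 0.09.

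No paired analysis was possible for mRNA because the labels number controls 1 to 3 and IL-4 libraries 4 to 6. Small RNA libraries share numbers 1 and 2, and same-numbered libraries deviated together (correlation 0.455 with only 2 pairs), but nothing in the labels says that a number marks a shared culture. With a replicate block, 1 of the 6 Mcm7 miRNAs was called (miR-106b-5p, 0.65, adjusted p = 0.00124 in edgeR), and 31 of all miRNAs instead of 0. miR-25-3p turned to 0.03 and miR-106b-3p to 0.07 with library totals, miR-106b-3p to 0.01 without a filter, and miR-93-5p to -0.02 with sums over precursors. Without 1 library the estimates ran from -0.29 to 0.18 for miR-25-3p, -0.52 to 0.14 for miR-93-3p, -0.08 to 0.09 for miR-93-5p, -0.33 to 0.35 for miR-106b-3p and -0.23 to 1.44 for miR-106b-5p. The cause of these changes was not tested.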
